A study of Mus musculus with 18 samples.

Results

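The kidney's extracellular matrix was followed through 36 genes that build it, bind it to cells or remodel it. The list was given by gene name, and it was chosen with earlier results of these data known. It holds 14 basement membrane genes, 9 genes of the interstitial matrix between the tubules, 5 matricellular genes and 8 genes for matrix enzymes and their inhibitors, out of 45706 genes in the count tables. Each gene was matched by its Ensembl identifier to the GENCODE vM21 annotation of GRCm38, and all 36 had enough reads to be tested in every comparison.

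Whole kidneys were sequenced 12 h after 22.5 min of bilateral ischemia/reperfusion (I/R) in 18 male mice on the C57BL/6J background. KO mice carried *Cxcl12* fl/fl or *Myc* fl/fl together with Pax8rtTA and TetOCre, so that doxycycline switched on the recombinase in cells of the kidney epithelium. Controls carried the same floxed alleles and Pax8rtTA but lacked TetOCre. All mice, controls included, drank doxycycline at 2 mg per ml for 14 days, had a washout of 1 week and were 10 to 12 weeks old at I/R. The *Cxcl12* line gave 5 KO kidneys and 3 controls and the *Myc* line gave 5 of each, with no uninjured kidney among them. All groups therefore share the injury and the antibiotic, and the Pax8 promoter is not active in the fibroblasts, endothelium and leukocytes that also make matrix.

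Basement membranes are thin sheets under every tubule, glomerulus and vessel, in which a type IV collagen network and a laminin network are linked by nidogen and the heparan sulfate proteoglycan perlecan. The interstitial matrix is made mostly by fibroblasts and holds the fibrillar collagens, type VI collagen, fibronectin and small proteoglycans. Matricellular proteins are secreted into the matrix but mainly signal to cells, and several are made soon after injury. In whole tissue, fewer cells of a type and less RNA per cell cannot be told apart.

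The depth per kidney was 12918220 to 29749500 reads assigned to genes, and member counts ranged from 11 (*Lum*) to 41814 (*Col4a1*) reads. *Cxcl12* had 26.3 to 40.9 CPM (read counts scaled to a common library size by TMM) in its KO and 44.9 to 60.5 CPM in its control kidneys, and *Myc* had 26.6 to 37.0 CPM in its KO and 79.7 to 117 CPM in its control kidneys, which matches the labels. All markers of proximal tubule (6), distal segments and collecting duct (5), podocytes (6), endothelium (8), fibroblasts and pericytes (9), macrophages (6), neutrophils (5) and tubular injury (4) had reads in all 18 kidneys. The lowest were *Gli1* (mean 0.387 CPM) and *Ly6g* (mean 0.347 CPM). In 6 kidneys under 5% of reads were unmapped, and 2 of them were *Cxcl12* KO, 2 *Myc* KO and 2 from *Myc* controls, with no *Cxcl12* control. These 6 kidneys were also the deepest, with 22437067 to 29749500 reads on genes, against at most 18006784 in the others.

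Together the 36 genes took up 0.753% to 1.21% of the normalized reads of a kidney. The sum was 8074 ± 253 CPM in *Cxcl12* control (SD, n = 3), 8234 ± 770 CPM in *Cxcl12* KO (SD, n = 5), 8824 ± 1577 CPM in *Myc* controls (SD, n = 5) and 10955 ± 968 CPM in the *Myc* KO group (SD, n = 5). Basement membrane genes gave the largest part in every group, with group means from 4035 to 4830 CPM. Interstitial genes gave the smallest part, with group means from 333 to 425 CPM.

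To compare levels between genes, CPM were divided by the exon length in kilobases (FPKM). That length joins all annotated exons of a gene, used or not, so levels between genes depend on it. Mean levels over the 18 kidneys ran from 0.598 FPKM for *Lum* to 216 FPKM for *Cyr61*, and 7 genes had at least 100 FPKM. Neighbours in this order overlapped in all 35 pairs when every kidney was counted, and the order of a neighbouring pair was the same in all 18 kidneys for only 6 pairs. The rank of a single gene is therefore less certain than its range.

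**Figure D1:**
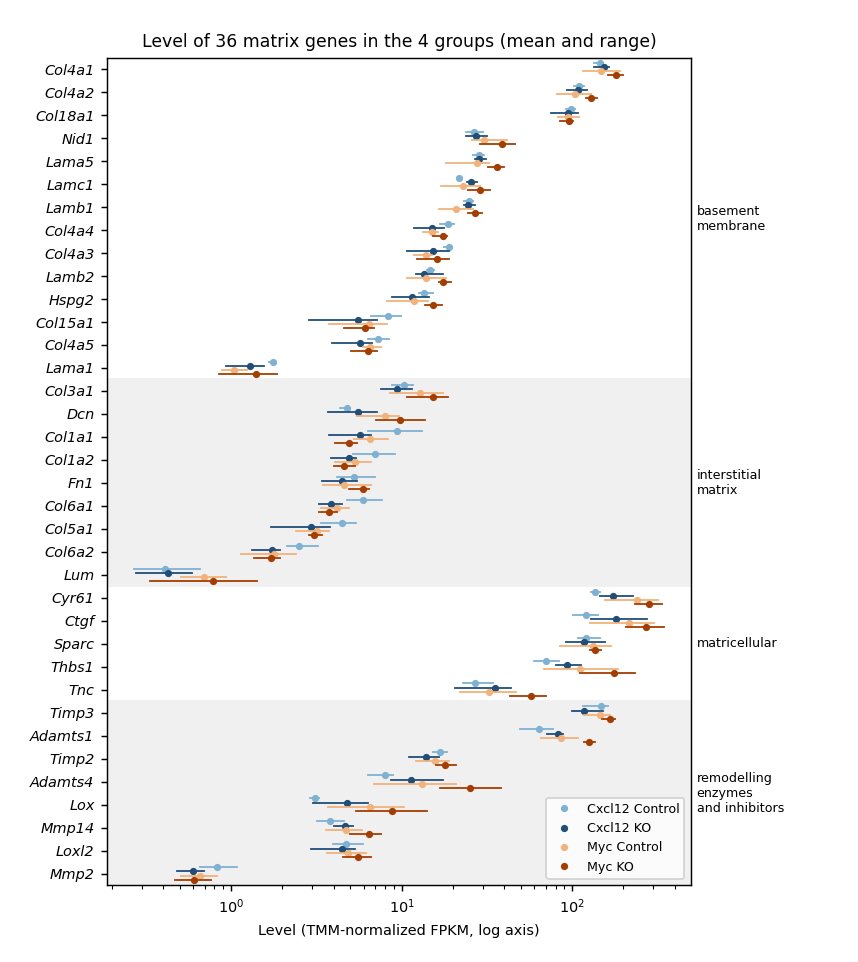
TMM-normalized FPKM (log axis) of the 36 genes, ordered by role and level, with the mean (point) and the lowest and highest kidney (line) of each of the 4 groups. Basement membrane and matricellular genes lie mostly above 10 FPKM, and *Col3a1* is the only interstitial gene with a mean above 10 FPKM over the 18 kidneys.

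Per exon length, 4 of the 5 matricellular genes were among the 7 members with at least 100 FPKM. *Cyr61* and *Ctgf* encode secreted CCN family proteins whose transcription is a textbook readout of YAP and TEAD activity, and their means over the 18 kidneys were 216 and 206 FPKM. *Sparc*, a collagen-binding glycoprotein, had 128 FPKM, *Thbs1*, a thrombospondin that activates latent TGF-β, had 117 FPKM, and the tenascin gene *Tnc* had 39.2 FPKM. *Cyr61*, the highest member, is the one whose promoter is shown here for its role: the 250 bases before its RefSeq start lie at chr3:145649986-145650235 on the minus strand of GRCm38.p6 (named *Ccn1* there), and the capitals mark a TEAD motif that begins 103 bases before the start.
Cyr61: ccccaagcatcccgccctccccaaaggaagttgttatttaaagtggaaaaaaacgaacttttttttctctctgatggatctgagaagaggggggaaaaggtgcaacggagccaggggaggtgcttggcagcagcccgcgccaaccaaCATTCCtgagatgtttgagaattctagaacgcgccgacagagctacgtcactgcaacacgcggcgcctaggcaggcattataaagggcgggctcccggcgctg

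The collagen IV network genes differed widely in level. *Col4a1* and *Col4a2*, whose products form the collagen IV of most basement membranes, had means of 159 and 114 FPKM. *Col4a3*, *Col4a4* and *Col4a5*, whose products replace them in the glomerular basement membrane and are mutated in Alport syndrome, had 15.8, 16.3 and 6.39 FPKM. *Col18a1*, a collagen with heparan sulfate chains, had 95.7 FPKM, and its relative *Col15a1* had 6.42 FPKM.

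Among the laminin chains, *Lama5* had 30.4 FPKM against 1.33 FPKM for *Lama1*, an α chain of tubular basement membranes. *Lamb1* and *Lamc1* were close to each other at 24.3 and 25.2 FPKM, and *Lamb2*, the β chain of the mature glomerulus, had 15.0 FPKM. *Nid1* (nidogen) had 31.4 FPKM and *Hspg2* (perlecan) had 13.0 FPKM.

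The interstitial genes were led by *Col3a1*, the type III collagen, with 12.1 FPKM. The proteoglycan *Dcn* (decorin) had 7.30 FPKM and the fibronectin gene *Fn1* had 5.04 FPKM. The type I collagen chains *Col1a1* and *Col1a2* had 6.32 and 5.28 FPKM, and *Col5a1*, which helps to start type I fibrils, had 3.30 FPKM. *Col6a1* and *Col6a2*, chains of the beaded microfibrils around cells, had 4.26 and 1.87 FPKM. Before division by their exon lengths of 4380 and 8326 bases they were closer, at 18.6 and 15.6 CPM. For the type I chains the order was reversed in CPM, with 41.5 for *Col1a1* and 65.6 for *Col1a2*. The proteoglycan *Lum* (lumican) was lowest, and its 0.598 FPKM rests on 11 to 91 reads per kidney. The promoter of *Col3a1* is shown because it is the highest interstitial gene: it lies at chr1:45311288-45311537 on the plus strand, only 35.2% of its 250 bases are G or C against 54.8% for *Cyr61*, and the capitals mark a TEAD motif that begins 168 bases before the start.
Col3a1: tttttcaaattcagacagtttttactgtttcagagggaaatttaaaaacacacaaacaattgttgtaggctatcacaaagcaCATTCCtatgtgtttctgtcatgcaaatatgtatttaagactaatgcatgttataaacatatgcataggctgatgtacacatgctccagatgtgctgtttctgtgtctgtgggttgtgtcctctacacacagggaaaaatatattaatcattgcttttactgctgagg

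Among the remodelling genes, the metalloproteinase inhibitor *Timp3* was far above its relative *Timp2* (144 against 16.0 FPKM). *Adamts1* and *Adamts4*, which cleave aggregating proteoglycans, had 92.6 and 15.1 FPKM. The lysyl oxidases *Lox* and *Loxl2*, which crosslink collagen, had 6.09 and 4.92 FPKM. The membrane-bound collagenase *Mmp14* had 5.03 FPKM, and the gelatinase *Mmp2*, which MMP14 activates together with TIMP2, had 0.654 FPKM from at least 21 reads per kidney.

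Kidneys of one group differed more in the matricellular genes than in the basement membrane. The SD of log2 CPM within groups had a median of 0.20 over the basement membrane genes, 0.32 over the interstitial, 0.39 over the matricellular and 0.26 over the remodelling genes, against 0.22 over the 15903 genes tested in the 18 kidneys. The steadiest member was *Col4a4* (0.15) and the most variable was the thinly covered *Lum* (0.55), followed by *Adamts4* (0.45) and *Lox* (0.45). Between the lowest and the highest of the 18 kidneys, 24 members varied by more than 2-fold.

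Chains that assemble together kept their proportion more tightly than their levels. *Col4a1* and *Col4a2* start 21 bases apart on opposite strands, and their FPKM ratio within a kidney ran from 1.28 to 1.69, a 1.32-fold range, while each gene alone ranged 1.73-fold and 1.72-fold. *Col4a3* and *Col4a4*, which start 72 bases apart, had ratios from 0.804 to 1.08. The ratio of *Col1a1* to *Col1a2* ran from 0.969 to 1.28 in *Cxcl12* KO against 1.23 to 1.43 in *Cxcl12* control kidneys, and from 0.891 to 1.25 in *Myc* KO against 1.06 to 1.34 in *Myc* control kidneys, so that the ranges overlapped in both lines. *Ctgf* and *Cyr61* were less bound to each other, with ratios from 0.547 to 1.39. That 2.54-fold range was still below the 3.42-fold and 2.62-fold ranges of the genes alone. Unrelated gene pairs were not examined. The chains of each collagen are read in the same library, and these ranges are descriptions without a test.

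**Figure D2:**
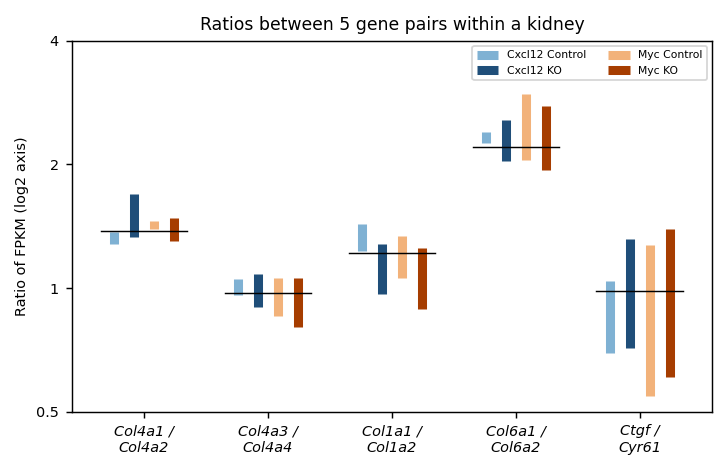
Ratio of the FPKM of 5 gene pairs within a kidney (log2 axis), with a bar from the lowest to the highest kidney of each group and a line at the median of the 18 kidneys. The bars of *Col4a1* to *Col4a2* and *Col4a3* to *Col4a4* are short, and those of *Ctgf* to *Cyr61* span 0.547 to 1.39.

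To ask what loss of tubular *Myc* did to the matrix after I/R, *Myc* KO kidneys were compared with their 5 controls. One protease passed: *Adamts1* rose 1.45-fold. *Tnc*, *Adamts4* and most basement membrane genes had higher values in *Myc* KO kidneys without passing the test, and *Col1a1* had lower values without passing. By edgeR's quasi-likelihood test with Benjamini-Hochberg adjustment over all genes, 1 of 36 members was called higher, against 0.355% of the 14936 genes tested, and 0 were called lower, against 1.29%. No member had every KO kidney below every control, against 3.92% of all genes. At an unadjusted p under 0.05 there were 15 members, against 21.9% of all genes, and DESeq2 called 5 members (*Adamts1*, *Tnc*, *Adamts4*, *Col1a1* and *Lamb1*), against 7.57%.

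*Adamts1* (chromosome 16, 85793827 to 85803113, minus strand) had 666, 625, 723, 642 and 678 CPM in *Myc* KO kidneys 1 to 5 and 476, 430, 578, 350 and 465 CPM in *Myc* control kidneys 1 to 5. Every KO kidney lay above every control kidney, which held for no other member and for 2.05% of all genes tested. The log2 fold change was 0.54 (SE 0.12, edgeR adjusted p = 0.040). The log2 ratio of means was 0.41 among the kidneys with under 5% unmapped reads (2 against 2) and 0.63 among the others (3 against 3). Leaving out any kidney but *Myc* control 3 raised the adjusted p above the threshold, to between 0.055 and 0.12, with log2 fold changes from 0.45 to 0.56; without *Myc* control 3 it was 0.015.

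Because *Adamts1* is the gene that was called, its promoter is given in full, at chr16:85803114-85803363 on the minus strand. It holds no E-box (CACGTG, the letters that MYC binds with MAX), no TEAD motif (CATTCC) and no AP-1 motif (TGANTCA) on either strand, so no letter is in capitals.
Adamts1: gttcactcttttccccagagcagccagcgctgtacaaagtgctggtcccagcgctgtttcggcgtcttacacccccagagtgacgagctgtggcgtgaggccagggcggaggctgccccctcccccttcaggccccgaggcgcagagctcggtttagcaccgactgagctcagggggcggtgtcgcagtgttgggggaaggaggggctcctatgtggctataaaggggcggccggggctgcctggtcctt

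The same motifs were searched in the 250 bases before the start of the 23 members with a RefSeq promoter and of all 32851 promoters of the table. No member held the E-box, against 6.02% of all promoters. The TEAD motif was in *Nid1*, *Col18a1*, *Col3a1*, *Col6a2* and *Cyr61*, against 12.6% of all promoters, and the AP-1 motif was in *Col6a1*, against 6.75%. A match describes letters and not binding.

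*Tnc* had 336, 406, 523, 543 and 417 CPM in *Myc* KO kidneys and 189, 269, 364, 171 and 266 CPM in *Myc* control kidneys. The highest control, kidney 3, reached above the lowest KO kidney. The log2 fold change was 0.82 (SE 0.20, edgeR adjusted p = 0.059), and it passed by DESeq2 (adjusted p = 0.0019).

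*Adamts4* had 81.4, 104, 118, 184 and 119 CPM in *Myc* KO and 57.5, 65.9, 100, 33.4 and 59.1 CPM in *Myc* control kidneys. Again only *Myc* control 3 overlapped the KO kidneys. Its log2 fold change, the largest of any member, was 0.94 (SE 0.26, edgeR adjusted p = 0.087, DESeq2 adjusted p = 0.0083).

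The basement membrane genes *Lama5*, *Lamb1* and *Hspg2* were among the 8 members with the smallest p. *Lama5* had 416, 403, 417, 454 and 367 CPM in *Myc* KO and 323, 327, 369, 208 and 352 CPM in *Myc* control kidneys (log2 fold change 0.38, SE 0.14, edgeR adjusted p = 0.14). *Lamb1* had 242, 255, 281, 296 and 260 CPM against 204, 184, 259, 165 and 228 CPM (0.36, SE 0.12, edgeR adjusted p = 0.12), and *Hspg2* had 207, 195, 247, 242 and 196 CPM against 162, 156, 202, 117 and 204 CPM (0.37, SE 0.14, edgeR adjusted p = 0.16). In all of them *Myc* control 4 was the lowest kidney of its group, and the groups overlapped.

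*Mmp14* had 29.8, 35.8, 45.0, 44.9 and 35.8 CPM in *Myc* KO and 23.2, 27.3, 35.2, 21.4 and 34.6 CPM in the *Myc* controls (log2 fold change 0.43, SE 0.16, edgeR adjusted p = 0.15). *Col1a1* was the only one of these 8 with lower values in KO, at 32.3, 36.2, 32.2, 26.8 and 33.2 CPM against 34.7, 43.2, 41.2, 40.6 and 54.6 CPM (log2 fold change -0.41, SE 0.12, edgeR adjusted p = 0.094, DESeq2 adjusted p = 0.025). Its groups overlapped only through *Myc* control 1.

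By role, 12 of 14 basement membrane genes had a log2 fold change above 0 in *Myc* KO, with a median of 0.33. All 5 matricellular genes and 7 of 8 remodelling genes also lay above 0, with medians of 0.32 and 0.32. The interstitial genes were split, 4 above and 5 below 0, with a median of -0.05. Over all 36 members 77.8% lay above 0 with a median of 0.27, against 49.9% and a median near 0 over all genes tested. None of the basement membrane, interstitial or matricellular genes was called by edgeR, while DESeq2 called *Lamb1*, *Col1a1* and *Tnc* among them (adjusted p = 0.043, 0.025 and 0.0019).

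These counts depended on single kidneys. Without *Myc* control 3, 6 members were called (*Adamts1*, *Tnc*, *Adamts4*, *Lamb1*, *Fn1* and *Thbs1*) and 877 genes in all, against 246 with it. Without any other kidney of the line 0 members were called. The count over all genes then fell to 21 without *Myc* KO 2, 29 without KO 3, 54 without KO 4 and 78 without KO 5, and to 35, 96 and 108 without *Myc* control 2, 4 and 5, while it was 210 without KO 1 and 277 without control 1. In *Myc* control 3 *Thbs1* had 1130 CPM, against 417 to 792 CPM in the other *Myc* controls and 675 to 1417 CPM in *Myc* KO kidneys. This control was also the deepest kidney of the series (29749500 reads on genes, 4.24% unmapped), and the part of depth in its values was not tested. The marker sums of *Myc* KO and control kidneys overlapped, and no marker gene was called by edgeR. The 6 podocyte markers summed to 748 to 857 CPM in *Myc* KO and 445 to 776 CPM in control kidneys, the 8 endothelial markers to 816 to 1110 and 734 to 1020 CPM, and the 5 neutrophil markers to 118 to 221 and 39.4 to 187 CPM. The 9 fibroblast and pericyte markers summed to 603 to 683 and 495 to 755 CPM, and the 4 injury markers to 2860 to 3340 and 2590 to 3390 CPM. The part of these cells in the matrix values was not tested.

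**Figure D3:**
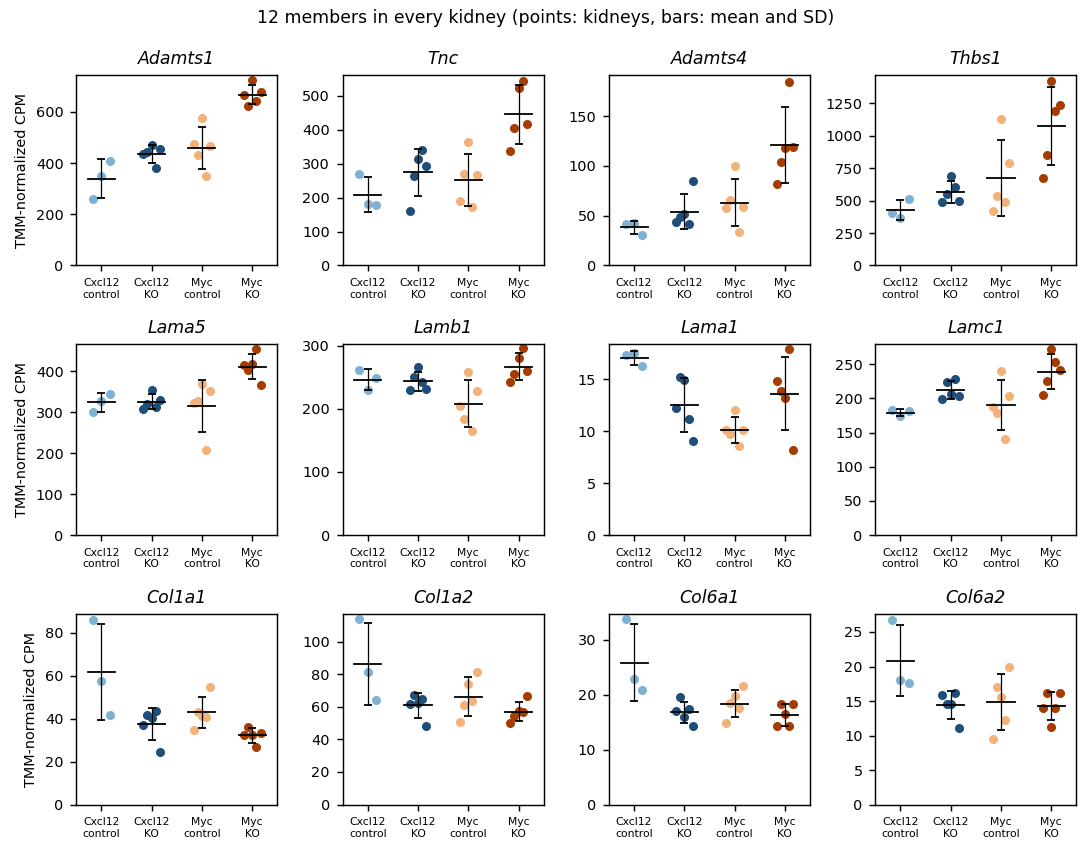
TMM-normalized CPM of 12 members in each of the 18 kidneys, with the mean and SD of each group. The 5 *Myc* KO kidneys lie above all *Myc* controls for *Adamts1* (625 to 723 against 350 to 578 CPM), and the 5 *Cxcl12* KO kidneys lie below all *Cxcl12* controls for *Col6a1*, *Col6a2* and *Lama1*.

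The second comparison asked the same of tubular *Cxcl12*. No member passed in *Cxcl12* KO kidneys. The 6 members furthest from the controls on the log2 scale were *Col1a1*, *Col6a1*, *Col5a1* and *Col15a1*, at 0.607, 0.650, 0.659 and 0.665 of their control levels, and *Lox* and *Ctgf*, at 1.53 and 1.50 times theirs. *Col3a1*, the highest interstitial gene, was at 0.904 of its control level. By edgeR's test 0 of 36 members were called in either direction, as were 0% of the 15154 genes tested. At an unadjusted p under 0.05 there were 16 members, against 13.0% of all genes, and DESeq2 called 1 member, *Col6a1*, against 2.33%.

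*Col6a1* had 17.0, 19.5, 15.9, 17.4 and 14.3 CPM in *Cxcl12* KO kidneys 1 to 5 and 33.8, 22.9 and 20.9 CPM in *Cxcl12* control kidneys 1 to 3 (log2 fold change -0.62, SE 0.16, edgeR adjusted p = 0.14, DESeq2 adjusted p = 0.027). *Col6a2* had 15.8, 14.5, 14.5, 16.2 and 11.1 CPM against 26.8, 18.1 and 17.6 CPM (log2 fold change -0.53, SE 0.16, edgeR adjusted p = 0.22). Every KO kidney lay below every control for both type VI chains and for *Lama1*, as for 4.72% of all genes tested.

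The type I chains overlapped with the controls through *Cxcl12* control 3. *Col1a1* had 37.1, 41.8, 40.4, 43.6 and 24.6 CPM in *Cxcl12* KO and 85.8, 57.3 and 41.8 CPM in *Cxcl12* control kidneys (log2 fold change -0.72, SE 0.22, edgeR adjusted p = 0.22). *Col1a2* had 61.6, 67.3, 62.6, 64.8 and 48.0 CPM against 114, 81.3 and 64.3 CPM (log2 fold change -0.51, SE 0.17, edgeR adjusted p = 0.24). *Cxcl12* control 1 was the highest of the 8 kidneys for all 4 of these collagens, and without it the log2 fold changes were -0.40 for *Col1a1*, -0.26 for *Col1a2*, -0.38 for *Col6a1* and -0.31 for *Col6a2*.

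*Lama1* had 12.2, 15.2, 14.9, 11.2 and 9.05 CPM in *Cxcl12* KO and 17.3, 17.5 and 16.3 CPM in *Cxcl12* control kidneys (log2 fold change -0.45, SE 0.16, edgeR adjusted p = 0.29). *Lamc1* went the other way, with 199, 224, 207, 229 and 204 CPM against 183, 174 and 181 CPM (log2 fold change 0.24, SE 0.08, edgeR adjusted p = 0.27), and was the only member with every KO kidney above every control, as were 4.96% of all genes tested. The more abundant α chain *Lama5* was at 1.0 times its control level.

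*Lox* had 30.2, 19.0, 24.3, 14.5 and 25.9 CPM in *Cxcl12* KO and 15.7, 13.8 and 15.1 CPM in *Cxcl12* control kidneys (log2 fold change 0.61, SE 0.21, edgeR adjusted p = 0.26). *Thbs1* had 488, 547, 688, 606 and 495 CPM against 401, 364 and 510 CPM (log2 fold change 0.41, SE 0.15, edgeR adjusted p = 0.29). *Lox* had 4 of 5 KO kidneys and *Thbs1* all 5 above the control mean. All 5 were above it for *Ctgf*, *Cyr61*, *Adamts1*, *Adamts4* and *Mmp14* too, with log2 fold changes of 0.59, 0.33, 0.36, 0.49 and 0.28, none of which passed.

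By role, 7 of 9 interstitial genes lay below 0 in *Cxcl12* KO, with a median log2 fold change of -0.51, and 11 of 14 basement membrane genes lay below 0 with a median of -0.08. Of the matricellular genes 4 of 5 lay above 0, with a median of 0.39, and the remodelling genes were split 4 and 4 with a median of 0.10. Over all genes tested 50.2% lay above 0, with a median near 0. The interstitial median rested in part on 1 kidney, and was -0.26 without *Cxcl12* control 1. These tallies include values near 0, and 4 of the 36 members had the other sign without that control.

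The 4 injury markers summed to 2590 to 3150 CPM in *Cxcl12* KO and 1610 to 2440 CPM in *Cxcl12* control kidneys, without overlap, and the 5 neutrophil markers summed to 25.7 to 111 and 15.9 to 22.8 CPM, also without overlap. The 6 proximal tubule markers summed to 3640 to 4110 CPM in KO and 4230 to 5030 CPM in control kidneys, again without overlap. The 9 fibroblast and pericyte markers summed to 457 to 628 CPM in KO and 555 to 769 CPM in control kidneys, with overlap. The other lists overlapped too: endothelium (600 to 889 and 694 to 763 CPM), podocytes (547 to 810 and 578 to 621 CPM), distal segments and collecting duct (2960 to 5390 and 3980 to 4980 CPM) and macrophages (73.1 to 103 and 78.6 to 95.2 CPM). Of all single genes tested, 4.96% had every KO kidney above every control and 4.72% below, and the share for sums was not counted. None of these marker genes was called by edgeR, and their part in the matrix values was not tested. Since none of the 3 controls had under 5% unmapped reads, the KO kidneys were also compared without the 2 that did: the log2 ratios of means were then -0.77 for *Col1a1*, -0.71 for *Col6a1* and 0.25 for *Lamc1*.

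**Figure D4:**
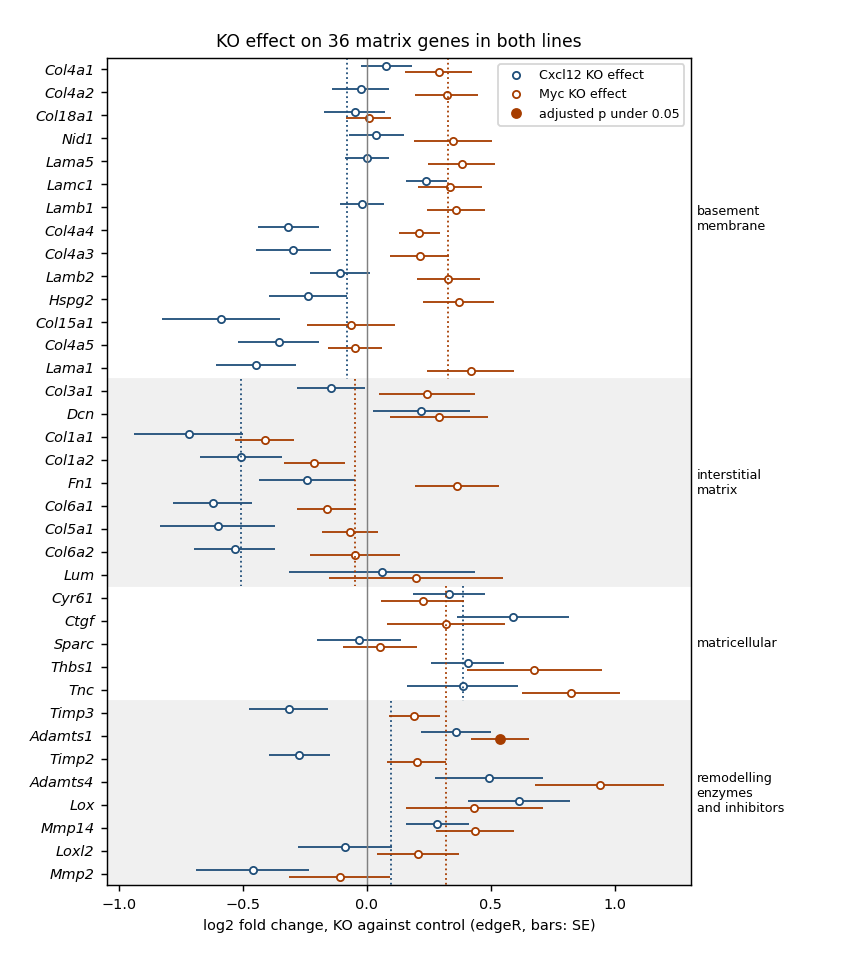
Log2 fold change of KO against control for the 36 genes in both lines (edgeR, bars give the SE), with dotted lines at the median of each role. The filled point, *Adamts1* in *Myc* KO at 0.54, is the only one with an adjusted p under 0.05; the interstitial medians (-0.51 and -0.05) lie to the left of the basement membrane medians (-0.08 and 0.33) in both lines.

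Basement membrane and interstitial genes were set against each other within each line. The median log2 fold change of the interstitial genes was 0.43 below that of the basement membrane genes in *Cxcl12* KO and 0.38 below it in *Myc* KO. Without *Cxcl12* control 1 the medians in that line were -0.26 and -0.11, so that most of its gap rested on that kidney. Kidney by kidney, the mean log2 CPM of the basement membrane genes exceeded that of the interstitial genes by 2.79 ± 0.07 in *Cxcl12* KO (SD, n = 5) and 2.62 ± 0.33 in *Cxcl12* control kidneys (SD, n = 3), and by 2.75 ± 0.22 in the *Myc* KO group and 2.51 ± 0.17 in its controls (SD, n = 5 each). The ranges overlapped in both lines, at 2.68 to 2.88 against 2.27 to 2.92 and at 2.43 to 3.04 against 2.29 to 2.77. The lowest difference among the *Cxcl12* kidneys was that of control 1, whose interstitial mean of 5.34 was the highest of all 18; the differences of the other controls were 2.66 and 2.92, on both sides of the KO mean.

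**Figure D5:**
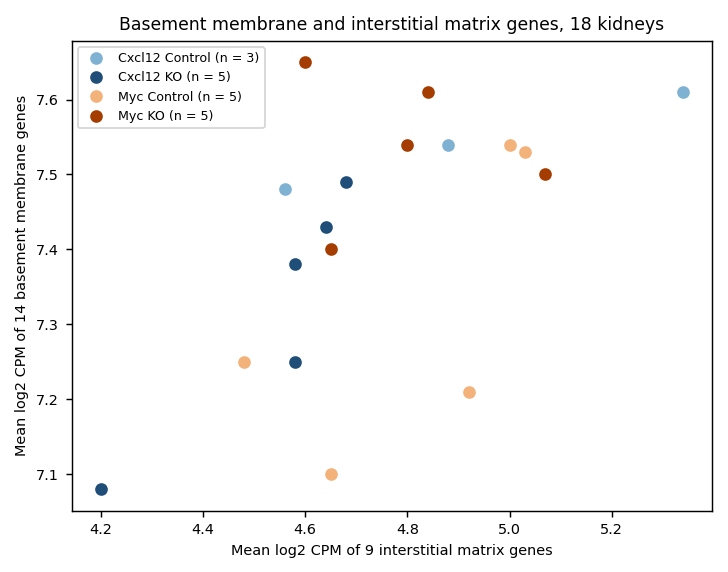
Mean log2 CPM of the 14 basement membrane genes against that of the 9 interstitial matrix genes, 1 point per kidney. The groups overlap on both axes; *Cxcl12* control 1 lies furthest right at 5.34 and *Cxcl12* KO 5 lowest at 4.20 and 7.08.

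The last comparison asked whether the KO effects differed between the lines, as the *Myc* effect minus the *Cxcl12* effect over all 18 kidneys. No member passed, while *Col4a4* and *Lama1* came closest, with values below control in *Cxcl12* KO and above control in *Myc* KO. For both genes the control groups of the lines lay further apart than the KO groups. *Col4a4* means were 199 and 159 CPM in *Cxcl12* and *Myc* controls and 160 and 184 CPM in the KO groups. *Lama1* means were 17.0 and 10.1 CPM in the controls and 12.5 and 13.6 CPM in the KO groups. By edgeR's test 0 of 36 members were called, against 0.0314% higher and 0.0377% lower of the 15903 genes tested. At an unadjusted p under 0.05 there were 11 members, against 11.4% of all genes, and DESeq2 called 2 members (*Col4a4* and *Lama1*), against 2.04%.

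*Col4a4* had 188, 158, 168, 161 and 127 CPM in *Cxcl12* KO and 179, 204 and 215 CPM in *Cxcl12* control kidneys, where the groups overlapped. In the *Myc* line it had 182, 198, 196, 163 and 182 CPM in KO and 170, 142, 164, 147 and 173 CPM in control kidneys. The difference of the effects was 0.52 on the log2 scale (SE 0.14, edgeR adjusted p = 0.13, DESeq2 adjusted p = 0.029).

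*Lama1* had 14.8, 13.9, 13.2, 17.9 and 8.21 CPM in *Myc* KO and 10.1, 9.70, 12.0, 8.56 and 10.1 CPM in *Myc* control kidneys, with *Myc* KO 5 below all controls. The difference of its effects was 0.86 (SE 0.26, edgeR adjusted p = 0.16), and it passed without *Myc* KO 5 (1.00, edgeR adjusted p = 0.045). Its *Myc* log2 ratio of means was -0.05 among kidneys with under 5% unmapped reads, which include *Myc* KO 5, and 0.72 among the others.

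The other 6 members with the smallest p were *Timp3* (0.50, SE 0.19), *Hspg2* (0.60, SE 0.23), *Timp2* (0.47, SE 0.18), *Col4a3* (0.50, SE 0.20), *Lamb1* (0.37, SE 0.15) and *Lamb2* (0.43, SE 0.19), with edgeR adjusted p from 0.28 to 0.38. The inhibitor *Timp3* had mean levels of 962 CPM in *Cxcl12* KO and 1190 CPM in *Cxcl12* control against 1350 CPM in *Myc* KO and 1180 CPM in *Myc* control kidneys. *Lamb2* had 82.6 and 88.8 CPM in the *Cxcl12* line against 107 and 85.2 CPM in the *Myc* line.

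For 33 of 36 members the *Myc* effect lay above the *Cxcl12* effect, with a median difference of 0.34, against 49.0% of all genes tested and a median near 0. All 14 basement membrane genes and all 9 interstitial genes were on that side. Such a difference takes in the control levels of both lines as well as their KO levels. Without *Cxcl12* control 1, 4 members changed side. Several marker lists lay the same way: all 9 fibroblast and pericyte markers (median difference 0.38), all 8 endothelial (0.22) and all 6 proximal tubule markers (0.41). So did 5 of 6 podocyte markers (0.23), 4 of 5 markers of distal segments and collecting duct (0.38) and 4 of 6 macrophage markers (0.14). The other way lay 4 of 5 neutrophil markers (-0.87) and all 4 injury markers (-0.58). No marker gene was called by edgeR, and the part of these cells in the matrix values was not tested. In sign, 13 members lay above 0 in both lines, 8 lay below 0 in both, 15 lay below 0 in *Cxcl12* KO and above 0 in *Myc* KO, and 0 lay the other way round. The 8 that lay below 0 in both were *Col4a5*, *Col15a1*, *Col1a1*, *Col1a2*, *Col5a1*, *Col6a1*, *Col6a2* and *Mmp2*.

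By group means, several members differed more between the lines than between KO and control within a line. The lines were bred apart and their controls were not compared by a test. *Cyr61* had 277 ± 16.9 CPM in *Cxcl12* control (SD, n = 3), 350 ± 67.6 in *Cxcl12* KO, 487 ± 124 in *Myc* control and 569 ± 80.3 in *Myc* KO kidneys (SD, n = 5 each). *Dcn* had 27.8 ± 2.14, 32.5 ± 8.47, 47.0 ± 9.18 and 57.3 ± 17.2 CPM in the same order, and *Lox* had 14.9 ± 0.929, 22.8 ± 6.10, 31.1 ± 11.7 and 42.0 ± 16.0 CPM. For these 3 genes the highest *Cxcl12* control lay below the lowest kidney of both *Myc* groups, while KO and control overlapped within each line. The share of all genes with such a separation was not counted, so it is not shown to be particular to these genes.

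Other members were nearly level across the 4 groups. *Col18a1* had 690 ± 41.2 CPM in *Cxcl12* control (SD, n = 3), 669 ± 88.3 in *Cxcl12* KO, 667 ± 72.1 in *Myc* control and 670 ± 47.6 in *Myc* KO kidneys (SD, n = 5 each). *Sparc* had 458 ± 79.2, 449 ± 94.5, 502 ± 118 and 520 ± 32.4 CPM in the same order. *Col15a1* and *Col5a1* were highest in the *Cxcl12* controls, at 52.9 ± 10.4 and 37.7 ± 8.81 CPM, and lower in the other groups, with group means from 35.2 to 40.9 and from 24.9 to 27.3 CPM. None of these differences between KO and control passed the test, and their ranges overlapped.

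The wider matrix was read through 6 lists, in which edgeR called 1 gene, lower in *Myc* KO, against 1.29% of all genes tested that were called lower there and 0.355% higher. Among 20 tested collagen modifying enzymes, *Colgalt1*, which puts galactose on collagen hydroxylysines, fell in *Myc* KO from 80.4 ± 8.19 to 63.1 ± 2.08 CPM (SD, n = 5 each, log2 fold change -0.35, SE 0.08, edgeR adjusted p = 0.043). In that list 4 genes lay above and 16 below 0, with a median log2 fold change of -0.10. None of 12 other collagens (median 0.02), 16 other basement membrane genes (0.08), 28 other glycoproteins and proteoglycans (0.19), 30 other proteases and inhibitors (0.22) or 21 matrix receptors (0.26) was called in *Myc* KO.

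In *Cxcl12* KO no gene of the 6 lists was called. The other collagens had a median log2 fold change of -0.42, with 9 of 12 below 0. The other basement membrane genes had a median of -0.28 with 14 of 16 below 0, and the other glycoproteins and proteoglycans had -0.20 with 24 of 29 below 0. Proteases and inhibitors lay above 0 in 20 of 30 genes with a median of 0.17, the matrix receptors in 12 of 21 with a median of 0.04, and the collagen modifying enzymes in 7 of 20 with a median of -0.13. For the difference between the lines none of these genes was called either, and the median differences were 0.45 for the other collagens, 0.45 for the other basement membrane genes, 0.39 for the glycoproteins and proteoglycans, -0.02 for the proteases and inhibitors, -0.02 for the modifying enzymes and 0.15 for the receptors.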

How the data were processed

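The deposited values are raw counts of reads per gene, 1 table a kidney. Per the submitters' processing notes, reads were trimmed with Trimmomatic 0.32 and counted with STAR 2.4.0 on GRCm38; the annotation release is not given in the sources used here. The column that ignores strand was used, in which a read over 2 genes counts for neither (2.26% to 2.52% of reads). Exons of 13 members overlap another gene, so their counts are less certain. No kidney was a copy of another of its group: all 33 pairs within groups differed beyond counting noise (chi-square per degree of freedom from 6.31). Pairs across groups were not examined in this way.

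For each line, low genes were removed (filterByExpr), libraries were scaled (TMM) and edgeR 4.0.16 (R 4.3.3) gave quasi-likelihood F-tests, with Benjamini-Hochberg adjustment over all genes tested. The difference between lines was fitted over 18 kidneys. Calls took an adjusted p under 0.05. Log2 CPM used a prior count of 2, and FPKM the union of exons in GENCODE vM21. Promoters came from RefSeq (GRCm38.p6), and those whose window held an annotated exon were not printed. Alternatives were RLE scaling, DESeq2 1.42.0, limma voom 3.58.1, no filter, all kidneys in 1 fit, a replicate block, terms for or exclusion of kidneys with under 5% unmapped reads, the first strand column and leaving out each kidney. The pipeline was tested on simulated data. Figures used matplotlib 3.10.9.

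The members, lists and tests were chosen with earlier results of these data known. In each comparison the members that passed, filled up to 8 by smallest p, were given by kidney or by mean. The study's methods call the mice littermates and name a ComBat calibration for batch effects. The labels give neither litter nor batch, and the deposited counts were used without such a calibration, so p-values measure the spread between these kidneys.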

Additional observations from a re-analysis of the deposited data

Results flagged for a closer look

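Levels of the 36 genes were searched for a single kidney far from the others of its group, in 108 groups of 5 kidneys, where chance gives about 1 in 20 and 2 were found. *Lamb2* had 106 CPM in *Cxcl12* KO 3, against 73.7 to 79.7 CPM in the other 4 KO kidneys; without that kidney its log2 fold change against control was -0.22, against -0.11 with it. *Adamts4* had 84.8 CPM in *Cxcl12* KO 5, against 42.0 to 51.3 CPM in the other 4; without that kidney its log2 fold change was 0.27, against 0.49 with it. Neither gene was called in the *Cxcl12* line.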

How the results depend on the processing

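In *Myc* KO, where 1 member was called, the count was 5 by DESeq2, 3 with all 18 kidneys in 1 fit, 2 without a filter, 2 with the unmapped share as a term, and 0 without the kidneys with under 5% unmapped reads, 0 in the first strand column and 0 with a replicate block; leaving out 1 kidney gave 0 to 6. The adjusted p of *Adamts1* in the alternatives giving 0 was 0.057, 0.052 and 0.06 in that order, with log2 fold changes of 0.64, 0.53 and 0.56. In *Cxcl12* KO, where 0 were called, it was 1 by DESeq2, 0 with the replicate block and 0 on leaving out any kidney. For the difference between lines, where 0 were called, it was 2 by DESeq2, 1 without the kidneys with under 5% unmapped reads, 0 with the replicate block and 0 to 1 on leaving out a kidney. RLE scaling and limma voom kept these 3 counts. The exclusions also left fewer kidneys, and the cause of the changed counts was not tested. Same-numbered KO and control kidneys correlated from -0.029 to 0.135 (*Cxcl12*, 3 pairs) and -0.211 to 0.40 (*Myc*, 5 pairs). KO and control kidneys with different numbers correlated from -0.131 to 0.192 and from -0.521 to 0.478. So few pairs cannot show whether same-numbered mice were matched. The paired fits moved the genes called over the whole table in *Myc* KO from 246 to 18.

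The median log2 fold change of the basement membrane members stayed between -0.16 and -0.053 in *Cxcl12* KO on leaving out 1 kidney (-0.16 without *Cxcl12* KO 3) and between 0.24 and 0.40 in *Myc* KO. That of the interstitial members ran from -0.64 to -0.26 in *Cxcl12* KO and from -0.16 to 0.08 in *Myc* KO, so its sign in *Myc* KO was not stable. Of the members with the smallest p, 8 a comparison, none of the 24 log2 fold changes changed sign under any alternative run. Among all 36 members the sign changed for up to 5 in *Cxcl12* KO (with the replicate block), 3 in *Myc* KO (without *Myc* control 5) and 4 for the difference between lines (without *Cxcl12* control 1), which bears on the counts of genes above and below 0. Over the whole table, DESeq2 called 353, 1131 and 324 genes in the 3 comparisons where edgeR called 0, 246 and 11. The *Cxcl12* line has only 3 controls, which limits its precision.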
